A study of Mus musculus with 9 samples.

Results

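PDGF ligands, their receptors and genes used to mark pericytes were followed across 3 genotypes of E15.5 mouse kidney. The group held 10 genes, chosen by symbol as rows of the deposited FPKM table (fragments per kilobase of transcript, scaled to the size of the library), and all 10 were found among its 24138 loci. They were the ligand genes Pdgfa, Pdgfb and Pdgfc, the receptor genes Pdgfra and Pdgfrb, the pericyte markers Cspg4, Rgs5 and Mcam, and the potassium channel genes Kcnj8 and Abcc9.

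RNA came from whole kidneys, 3 of each genotype, collected from 3 crosses of Ntn1fl/fl with Foxd1GC/+;Ntn1fl/+ mice. Foxd1GC/+;Ntn1fl/fl kidneys (MUT) carried the GFP-Cre insertion at 1 Foxd1 allele and 2 floxed alleles of Ntn1, which encodes the secreted guidance cue netrin 1. Foxd1GC/+;Ntn1fl/+ kidneys (HET) carried the same insertion and 1 floxed allele, and Ntn1fl/fl kidneys (WT) carried 2 floxed alleles and no Cre. Every embryo therefore had at least 1 floxed Ntn1 allele, and MUT and HET shared the interrupted Foxd1 allele, so a difference between either of them and WT cannot be told apart from an effect of that allele. Cre is driven by Foxd1, a gene of stromal progenitors, whereas the RNA is that of the whole organ. The sources used here do not say which cross or embryo a library came from, so p-values measure the spread between these kidneys. In bulk RNA, fewer cells of a type and less RNA per cell cannot be told apart.

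PDGF ligands are secreted dimers that bind receptor tyrosine kinases on mesenchymal cells. PDGF-A and PDGF-C act mainly through the receptor encoded by Pdgfra, found on fibroblasts and interstitial stroma, and PDGF-B acts through the receptor encoded by Pdgfrb, found on pericytes, mesangial cells and vascular smooth muscle. Endothelial PDGF-B recruits these mural cells to new vessels, and in the kidney its loss leaves glomeruli without mesangium. Most kidney pericytes and mesangial cells descend from Foxd1-positive stromal progenitors, the cells in which Cre acts here.

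None of the 10 genes differed between genotypes past an adjusted p of 0.05. In limma fits on log2(FPKM + 1), with Benjamini-Hochberg adjustment over all genes of at least 5 FPKM on average in either genotype, 0 of 10081 genes (0%) were called between MUT and HET, 0 of 10096 (0%) between MUT and WT and 0 of 10105 (0%) between HET and WT. At an unadjusted p under 0.05 the share was 6.31% of all genes between MUT and HET, 0.644% between MUT and WT and 1.07% between HET and WT. Among the 10 genes, 1 of 10 (Rgs5, MUT against HET) was under that unadjusted threshold, and 0 of 10 in either comparison with WT. That count rests on a p just under 0.05: between MUT and HET it was 0 with the replicate number as a block, with a pseudocount of 3, with a minimum of 1 FPKM, with all 9 libraries in 1 fit and without the trend, and 2 without a filter or with a GC correction. With the block it was 1 between HET and WT, as it was without HET-3 or without WT-2. Without a filter it was 1 between MUT and WT. The genes also changed. Between MUT and HET without a filter, Pdgfc (0.17, standard error 0.038) and Pdgfa (-0.14, standard error 0.044) had the largest log2 differences for their standard error. Rgs5 (0.38, standard error 0.22) came after them. The 3 comparisons share libraries, so they are not independent of each other.

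Pdgfa and Pdgfc were the only members whose 3 MUT libraries lay apart from all 6 other libraries, Pdgfa below and Pdgfc above. The median log2 fold change of the 10 genes between MUT and HET was 0.02, beside -0.02 for all genes tested, with 7 above 0 and 3 below. Rescaling by median ratio moved the number above 0 to 8 and quantile normalization to 4, as the differences of Pdgfb, Kcnj8, Cspg4 and Abcc9 were close to 0.

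The promoters of Pdgfc and Pdgfa are shown because these were the members with separated MUT libraries. In the table of RefSeq promoters used here (GRCm38.p6), 8 of the 10 genes were matched, with 2 start sites for Pdgfa. Pdgfrb and Pdgfb were not matched. The 250 bases before each start are written 5′ to 3′ on the strand of the gene. Capitals mark a CArG box, the motif bound by serum response factor, in Pdgfc, and GC boxes, GGGCGG or its reverse complement CCGCCC, in Pdgfa.
Pdgfc, chr3:81036166-81036415, plus strand: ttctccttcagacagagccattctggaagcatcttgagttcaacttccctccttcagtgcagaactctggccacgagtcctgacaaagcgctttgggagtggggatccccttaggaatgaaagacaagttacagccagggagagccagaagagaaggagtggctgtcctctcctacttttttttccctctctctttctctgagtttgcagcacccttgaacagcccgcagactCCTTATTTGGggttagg
Pdgfa, chr5:138994282-138994531, minus strand: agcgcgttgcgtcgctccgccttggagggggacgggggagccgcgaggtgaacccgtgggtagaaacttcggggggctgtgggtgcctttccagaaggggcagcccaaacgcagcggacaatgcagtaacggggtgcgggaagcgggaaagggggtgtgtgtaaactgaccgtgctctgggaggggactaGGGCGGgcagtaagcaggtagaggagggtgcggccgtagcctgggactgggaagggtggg
Pdgfa, chr5:138994945-138995194, minus strand: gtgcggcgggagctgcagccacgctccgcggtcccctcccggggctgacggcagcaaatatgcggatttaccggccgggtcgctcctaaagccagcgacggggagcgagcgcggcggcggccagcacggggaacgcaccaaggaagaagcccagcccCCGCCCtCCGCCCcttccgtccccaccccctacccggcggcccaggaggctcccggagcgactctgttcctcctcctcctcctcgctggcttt

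The motifs were chosen after the sequences were seen and were searched on both strands. The Pdgfc promoter held 1 CArG box, whose first base lay 17 bases before the start, and 0 GC boxes, at a GC content of 50.8%. A CArG box was present in 1.47% of the 32851 promoters of the same length. The downstream and upstream Pdgfa starts had 1 and 2 GC boxes and a GC content of 66.4% and 72.4%, and 32.7% of all promoters held a GC box. Of the other members, Mcam had 5 GC boxes, Cspg4 2 and Abcc9 1. Rgs5 had 1 CCAAT box, present in 33.8% of promoters, and TATAAA was in none of the 9 promoters of these genes, against 12.4% of all promoters.

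Among the ligands, Pdgfa (chr5:138976972-138994953, minus strand, mm10) encodes the A chain, made in many developing organs by epithelium. Its level was 31.8, 31.8 and 31.5 FPKM in the WT libraries, 34.6, 32.8 and 31.1 FPKM in the HET libraries, and 30.2, 29.8 and 29.3 FPKM in the MUT libraries, each in the order of library number (WT-1, WT-2, WT-3). All MUT libraries were below all HET and all WT libraries, and the WT libraries lay within the range of HET. The mean was 29.7±0.429 FPKM in MUT, 32.9±1.76 in HET and 31.7±0.187 in WT (s.d., n=3 each), a difference of MUT of -9.46% from HET and -6.10% from WT.

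Neither difference passed the test. On the log2 scale, Pdgfa in MUT differed from HET by -0.14 (standard error 0.10, 95% interval -0.36 to 0.08, adjusted p = 0.759, limma) and from WT by -0.09 (standard error 0.11, adjusted p = 1.00, limma). An exact permutation test of the means, two-sided, gave p = 0.1 for both, the smallest that 3 libraries against 3 can give.

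Pdgfc (chr3:81036416-81214031, plus strand), the ligand that needs proteolytic activation outside the cell, had the opposite order. Its level was 23.5, 24.4 and 19.9 FPKM in WT, 23.2, 21.3 and 22.8 FPKM in HET, and 25.4, 24.9 and 25.5 FPKM in MUT. Every MUT library was above every HET and WT library. WT-3 was the lowest of all, whereas WT-1 and WT-2 lay above every HET library. Means were 25.3±0.304 FPKM in MUT, 22.4±1.00 in HET and 22.6±2.41 in WT (s.d., n=3 each), so that MUT was 12.7% above HET and 11.8% above WT.

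For Pdgfc the log2 difference was 0.17 for MUT against HET (standard error 0.096, 95% interval -0.05 to 0.38, adjusted p = 0.738, limma) and 0.16 for MUT against WT (standard error 0.12, 95% interval -0.11 to 0.42, adjusted p = 1.00, limma). The exact two-sided permutation p was again 0.1 for both comparisons. HET differed from WT by -0.01 (95% interval -0.26 to 0.24). Without WT-3, the lowest library, the log2 difference between MUT and WT was 0.07.

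Non-overlap of 3 libraries against 3 was common in the table as a whole. It held for 2 of the 10 members between MUT and HET, where 9.69% of all genes tested were separated, and for the same pair between MUT and WT, where 2.65% were. Between HET and WT it held for 0 of 10, beside 3.21% of all genes. For Pdgfa and Pdgfc, MUT lay outside the range of the 6 other libraries, and MUT lay so for 96 of 10164 genes (0.945%), above it for 0.374% and below it for 0.571%.

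**Figure D1:**
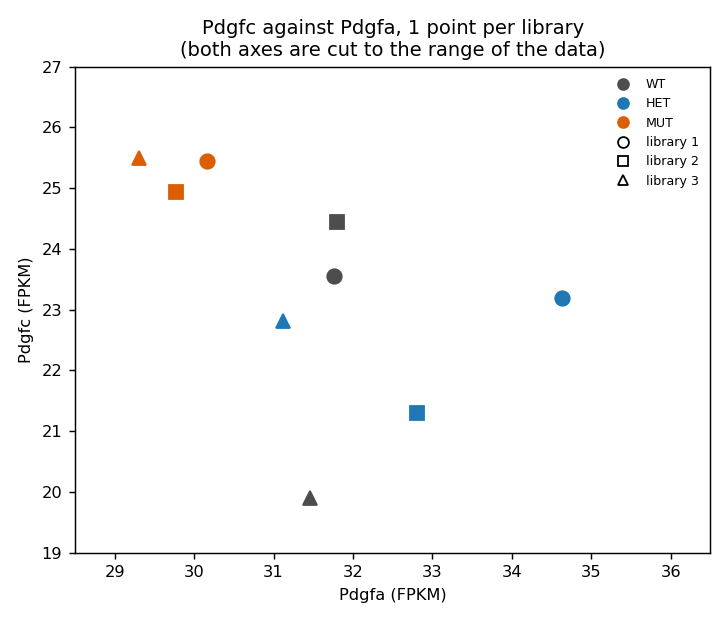
Pdgfc against Pdgfa, in FPKM, with 1 point for each of the 9 libraries, coloured by genotype and shaped by library number; both axes start above 0. The 3 MUT libraries sit at the upper left, with Pdgfc from 24.9 to 25.5 FPKM and Pdgfa from 29.3 to 30.2 FPKM.

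Within a library, the ratio of Pdgfc to Pdgfa does not depend on how the library was scaled. It was 0.741, 0.769 and 0.632 in WT, 0.670, 0.649 and 0.733 in HET, and 0.844, 0.838 and 0.870 in MUT. The ratio was higher in every MUT library than in any other, which follows from the separation of both genes and is no further evidence. The Xist-high libraries, 1 in HET and 1 in MUT, showed the same order as the libraries with high Y-linked genes: MUT over HET was 1.11 and 1.13 for Pdgfc, and 0.969 and 0.876 for Pdgfa.

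Pdgfb (chr15:79995876-80014808, minus strand), the ligand released by endothelium, showed no such order. Its level was 12.5, 10.3 and 8.52 FPKM in WT, 10.03, 12.4 and 8.59 FPKM in HET, and 11.3, 9.50 and 9.90 FPKM in MUT. WT-1 and HET-2 were the highest, WT-3 and HET-3 the lowest, and the 3 genotypes overlapped throughout. By limma the log2 difference was -0.0036 for MUT against HET (95% interval -0.30 to 0.30), -0.01 for MUT against WT (-0.34 to 0.31) and -0.01 for HET against WT (-0.37 to 0.34).

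The receptor genes were abundant in every library. Pdgfra (chr5:75152291-75198204, plus strand), which marks interstitial fibroblasts, was at 40.0, 40.0 and 45.1 FPKM in WT, 36.7, 38.4 and 49.2 FPKM in HET, and 43.8, 42.6 and 44.3 FPKM in MUT. HET held both the lowest and the highest library, and the MUT values lay inside that range. MUT differed from HET by 0.08 on the log2 scale (standard error 0.13, adjusted p = 0.877, limma), and the differences from WT were 0.06 for MUT and -0.02 for HET. The locus also carries the name of Mir7025, an intronic microRNA, and the antisense gene Gm42802 overlaps it. Antisense genes also overlap Pdgfb (Gm41361), Pdgfc (Gm16000) and Abcc9 (5330439B14Rik), and whether the counting used strand is not given in the sources used here.

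Pdgfrb, on chromosome 18, encodes the receptor of mural cells. It was at 33.8, 27.8 and 20.8 FPKM in WT, 24.2, 30.2 and 22.0 FPKM in HET, and 33.3, 23.6 and 23.6 FPKM in MUT. WT held both the lowest and the highest of the 9 libraries, and MUT-1 was close to WT-1. Means were 27.5±6.504 FPKM in WT, 25.4±4.26 in HET and 26.8±5.64 in MUT (s.d., n=3 each). By limma the log2 difference of Pdgfrb was 0.07 for MUT against HET (95% interval -0.28 to 0.41), -0.03 for MUT against WT (-0.46 to 0.40) and -0.09 for HET against WT (-0.48 to 0.30), so a difference inside these bounds could not be told from 0 with 3 libraries per genotype.

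**Figure D2:**
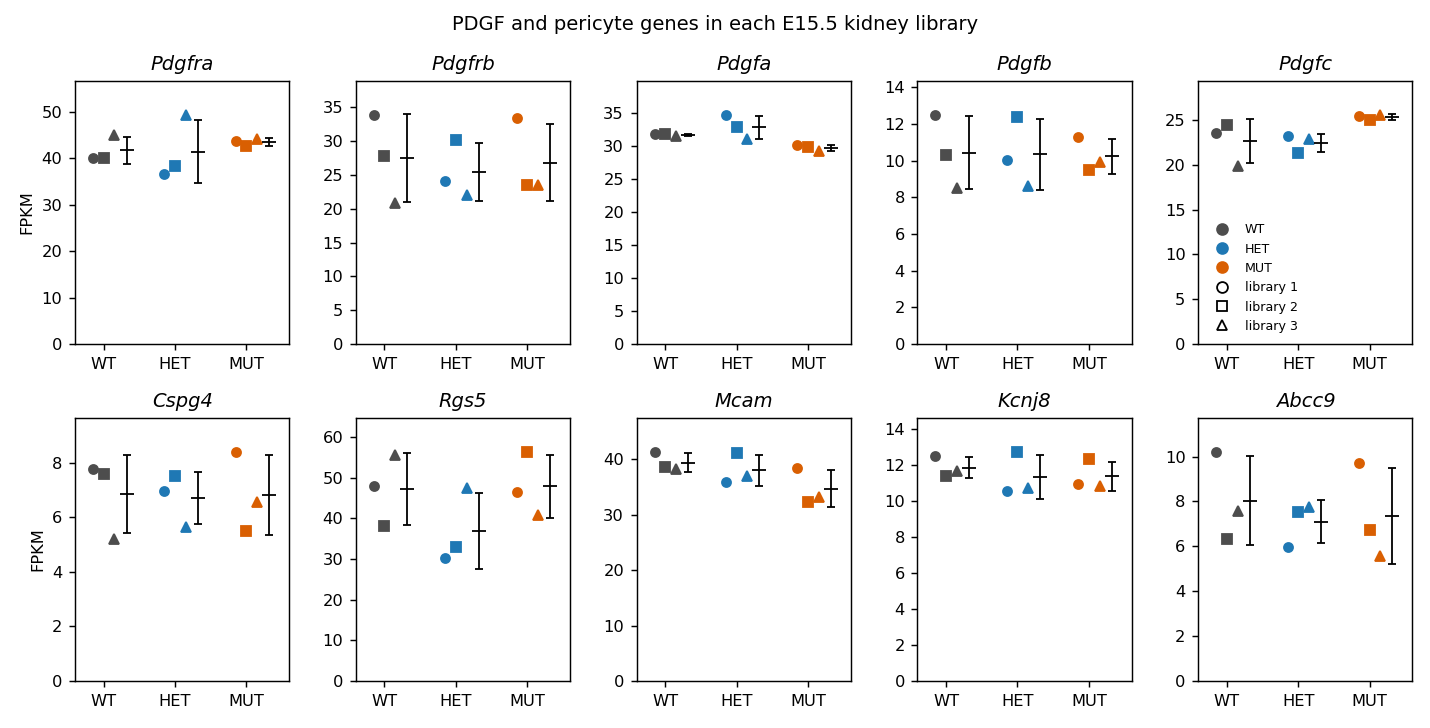
FPKM of each of the 10 genes (y axes, from 0) in WT, HET and MUT kidneys, with 1 point per library, shaped by library number, and the mean with s.d. (n=3) at the right of each group. Pdgfa in MUT (29.3 to 30.2 FPKM) and Pdgfc in MUT (24.9 to 25.5 FPKM) are the 2 panels in which a genotype lies apart from the other 2.

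Rgs5 (chr1:169655501-169693526, plus strand), a regulator of G protein signalling and a marker of pericytes, had the largest difference of the group between MUT and HET. It was at 47.9, 38.0 and 55.6 FPKM in WT, 30.1, 32.9 and 47.5 FPKM in HET, and 46.4, 56.3 and 40.9 FPKM in MUT. HET-1 and HET-2 were the lowest of the 9 libraries, but HET-3 was above MUT-1 and MUT-3, so the groups overlapped. The means were 36.8±9.30 FPKM in HET, 47.9±7.80 in MUT and 47.2±8.83 in WT (s.d., n=3 each).

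MUT exceeded HET in Rgs5 by 29.9%, a log2 fold change of 0.38 (standard error 0.17, 95% interval 0.00018 to 0.77), with an adjusted p of 0.738 by limma and an exact two-sided permutation p of 0.3. HET differed from WT by -21.9% in the group means (log2 fold change -0.36, standard error 0.19, adjusted p = 0.998, limma), and MUT and WT differed by 0.03 on the log2 scale (95% interval -0.36 to 0.41). Leaving out 1 library moved the log2 fold change from 0.26 (without HET-1) to 0.58 (without HET-3) for MUT against HET, and from -0.55 (without HET-3) to -0.23 (without HET-1 or WT-3) for HET against WT. The difference between MUT and HET was not alike in libraries of different sex-linked expression. The ratio of means was 1.54 in the 2 MUT and 2 HET libraries with high Y-linked genes, and 0.978 in the 1 MUT and 1 HET library with high Xist. The part of sex in the result was not tested. Across the 10 genes, MUT and HET lay apart one way in the Y-linked-high libraries and the other way in the Xist-high pair for 6, as they did for 24.7% of all genes tested.

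Cspg4 (chr9:56865104-56899870, plus strand) encodes the NG2 proteoglycan of pericytes. It was at 7.78, 7.58 and 5.20 FPKM in WT, 6.95, 7.50 and 5.64 FPKM in HET, and 8.39, 5.48 and 6.56 FPKM in MUT. The ranges of the 3 genotypes overlapped, and MUT-1 was the highest and WT-3 the lowest library. The log2 differences were 0.01 for MUT against HET (95% interval -0.34 to 0.37), -0.01 for MUT against WT and -0.02 for HET against WT, with limma adjusted p from 0.988 to 1.00, and their signs turned with quantile normalization.

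Mcam (chr9:44134658-44142726, plus strand), an adhesion molecule of both endothelium and mural cells, was at 41.3, 38.6 and 38.3 FPKM in WT, 36.0, 41.2 and 37.0 FPKM in HET, and 38.5, 32.4 and 33.3 FPKM in MUT. MUT-2 and MUT-3 were the lowest of the 9 libraries, whereas MUT-1 lay among the WT and HET values. The mean of MUT differed by -11.9% from WT (log2 fold change -0.18, standard error 0.12, adjusted p = 1.00, limma) and by -8.72% from HET (log2 fold change -0.13, standard error 0.11, adjusted p = 0.783, limma). The exact two-sided permutation p was 0.2 and 0.3.

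Kcnj8 and Abcc9 encode the pore and the sulfonylurea receptor subunit of the ATP-sensitive potassium channel of pericytes and vascular smooth muscle. They are neighbours on the minus strand of chromosome 6 (Kcnj8 at 142564939 to 142571356, Abcc9 at 142587862 to 142702274), separated by 16505 bases. Kcnj8 was at 12.5, 11.4 and 11.6 FPKM in WT, 10.5, 12.7 and 10.7 FPKM in HET, and 10.9, 12.3 and 10.8 FPKM in MUT, a range of 1.21-fold across the 9 libraries. Abcc9 was at 10.2, 6.34 and 7.56 FPKM in WT, 5.99, 7.52 and 7.75 FPKM in HET, and 9.72, 6.73 and 5.57 FPKM in MUT, a range of 1.83-fold. WT-1 and MUT-1 were the highest for Abcc9 but not for Kcnj8, and neither gene separated any pair of genotypes.

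Between MUT and HET the log2 difference was 0.01 for Kcnj8 (95% interval -0.24 to 0.25) and 0.02 for Abcc9 (-0.37 to 0.42). Against WT, HET and MUT were at -0.06 and -0.06 for Kcnj8 and at -0.15 and -0.12 for Abcc9, with limma adjusted p from 0.998 to 1.00. The ratio of Kcnj8 to Abcc9 within a library ran from 1.13 in MUT-1 to 1.94 in MUT-3, and WT (1.23 to 1.80) and HET (1.38 to 1.76) fell between. The pair of genes that encode the same kinds of subunit in pancreatic beta cells, Kcnj11 and Abcc8, stayed between 0.289 and 0.605 FPKM and were under the minimum for testing.

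**Figure D3:**
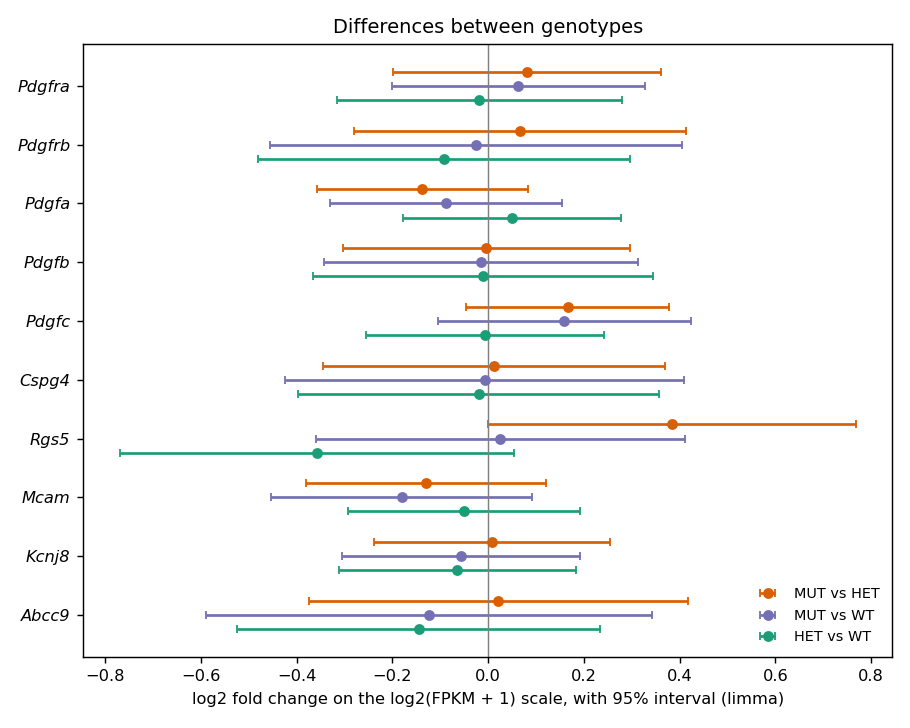
Log2 fold change of each gene on the log2(FPKM + 1) scale (x axis) between MUT and HET, MUT and WT, and HET and WT, with points for the limma estimate and bars for its 95% interval. Every interval includes 0 except that of Rgs5 between MUT and HET, which runs from 0.00018 to 0.77 and whose adjusted p is 0.738.

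By level, which FPKM allows between genes since it is per length, the order of the means over the 9 libraries was Rgs5 (44.0 FPKM), Pdgfra (42.2), Mcam (37.4), Pdgfa (31.4), Pdgfrb (26.6), Pdgfc (23.5), Kcnj8 (11.5), Pdgfb (10.3), Abcc9 (7.49) and Cspg4 (6.79). Only 1 step in that order, from Pdgfc to Kcnj8, had ranges that did not overlap. Pdgfb was thus the least abundant of the 3 ligands of the group, in each of the 9 libraries. The ratio of Pdgfrb to Pdgfra ranged from 0.446 to 0.845 and overlapped among WT, HET and MUT.

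The 10 genes fell into stable and variable ones. Pdgfa had a coefficient of variation of 5.20% over the 9 libraries, and 3.38% of the 9978 genes that averaged 5 FPKM or more varied less. Kcnj8 (7.16%), Pdgfc (8.13%), Mcam (8.32%) and Pdgfra (9.16%) were also below the median of all genes, 11.7%. Pdgfb (14.1%), Cspg4 (16.7%), Pdgfrb (18.4%), Rgs5 (21.0%) and Abcc9 (21.3%) were above it. The spread was also large inside a genotype, with a coefficient of variation of Abcc9 of 24.5% in WT, 13.5% in HET and 29.2% in MUT.

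Pdgfrb, Pdgfb and Cspg4, the receptor, its ligand and a pericyte proteoglycan, went up and down together. Over the 9 libraries Pearson's r of log2(FPKM + 1) was 0.93 between Pdgfrb and Pdgfb (Spearman's rho 0.97), 0.91 between Pdgfrb and Cspg4 (0.92) and 0.86 between Pdgfb and Cspg4 (0.90). After the mean of each genotype was taken away, r was 0.94, 0.91 and 0.86, so the relation lay within genotypes. These are descriptions over 9 points that share library preparation, depth and makeup of the kidney. The summed FPKM of 12 endothelial markers moved with the same genes, with r of 0.87 for Pdgfrb, 0.90 for Pdgfb and 0.84 for Cspg4. Summed, those markers were at 395 to 436 FPKM in WT, 374 to 436 in HET and 408 to 435 in MUT. Of the 12, 0 were at 0, and their part in the relation was not tested. Single markers did not all follow the sum: Pecam1 and Tek were highest in WT-3, where Pdgfrb was lowest.

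Rgs5 did not follow that trio. Its r was -0.22 with Pdgfrb, -0.41 with Pdgfb and -0.53 with Cspg4, and 0.70 with Pdgfra. Pdgfa went against both, with r of -0.69 with Pdgfra and -0.68 with Rgs5. Each r was also taken without the 2 libraries farthest from the median of the first gene named. Then r of Cspg4 with Rgs5 weakened from -0.53 to -0.05, and r of Pdgfrb with Rgs5 strengthened from -0.22 to -0.67. Both values thus depend on the libraries left out, in opposite ways, whereas r of Pdgfb with Rgs5 was -0.45 and r of Pdgfra with Pdgfa -0.73. Abcc9 had an r of -0.94 with the log2 of the summed FPKM of the library, so it was lowest in libraries of high total FPKM.

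**Figure D4:**
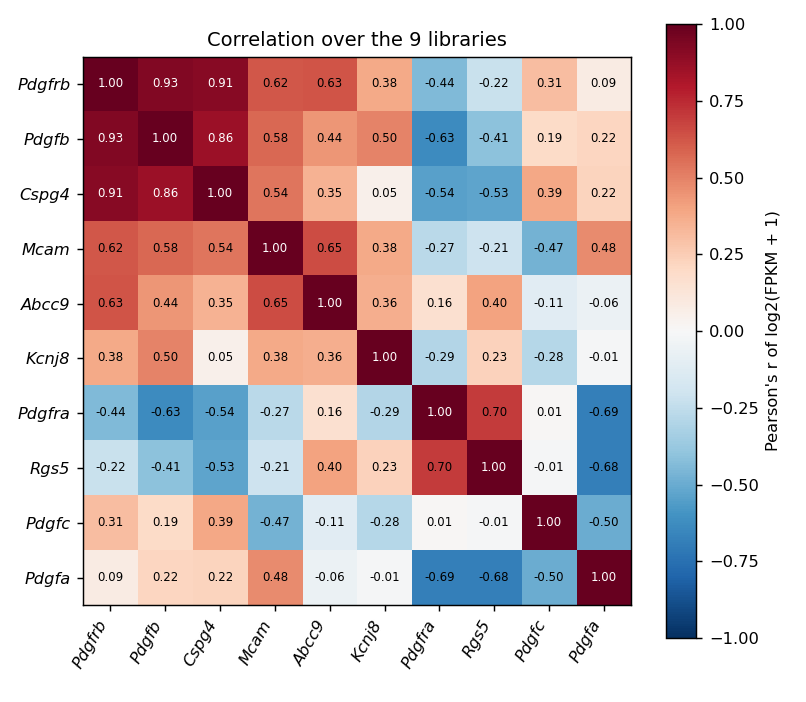
Pearson's r of log2(FPKM + 1) between each pair of the 10 genes over the 9 libraries, from -1 (blue) to 1 (red). Pdgfrb, Pdgfb and Cspg4 form a block of r from 0.86 to 0.93, and Rgs5 is closest to Pdgfra (0.70).

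Genes with the closest pattern were searched among 9977 others of at least 5 FPKM, by Pearson's r over the 9 libraries. Each r given is among the highest of that search over 9 points, a description that was not tested. For Pdgfc the closest genes were Col26a1 (0.97), Ppp2r2a (0.97) and B4galnt4 (0.96), and for Pdgfa they were Mavs (0.92), Nrros (0.91) and Zfp691 (0.90). Pdgfb was closest to Smtn (0.97), a smooth muscle cytoskeletal gene, Ndst2 (0.97) and Nrarp (0.96), a target of Notch signalling. Pdgfrb was closest to the joined locus Chpf2 and Mir671 (0.97), Trim41 (0.97) and Pear1 (0.97), and Cspg4 to Lama1 (0.99), Zer1 (0.98) and Dhx35 (0.98).

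The other members had neighbours of their own. Rgs5 was closest to Spopl (0.99), Nek7 (0.99) and C1galt1 (0.98), Pdgfra to Mapre1 (0.93), Slco4c1 (0.92) and Fv1 (0.91), and Abcc9 to Cramp1l (0.98), C2cd5 (0.97) and Chn2 (0.97). Mcam was closest to the joined locus Gm28042, Jmjd7 and Pla2g4b (0.93), Slc9a8 (0.90) and Vcl (0.89), and Kcnj8 to Mmab (0.95), Aqp3 (0.87) and Bmp4 (0.85). No gene was among the nearest 3 of more than 1 member.

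Pericyte genes were also set against Pecam1, an endothelial adhesion gene, as the difference of log2(FPKM + 1) within each library. Pdgfrb relative to Pecam1 was -0.33, -0.59 and -1.10 in WT, -0.68, -0.43 and -0.97 in HET, and -0.26, -0.66 and -0.73 in MUT. Rgs5 relative to Pecam1 was 0.16, -0.15 and 0.28 in WT, -0.37, -0.31 and 0.11 in HET, and 0.21, 0.56 and 0.04 in MUT. All 3 genotypes overlapped for both genes and for Cspg4.

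The difference between MUT and HET was 0.14 for Pdgfrb, 0.09 for Cspg4 and 0.46 for Rgs5, with exact two-sided permutation p of 0.5, 0.7 and 0.2 and adjusted p from 0.788 to 1 over the 9 tests of this kind. Pecam1 itself was at 42.4 to 45.6 FPKM in WT, 39.4 to 43.9 in HET and 37.9 to 40.0 in MUT. With the mean of the 12 endothelial markers in place of Pecam1, the difference between MUT and HET was -0.03 for Pdgfrb and -0.08 for Cspg4, so the sign of these 2 depended on the endothelial gene used, and it was 0.29 for Rgs5.

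**Figure D5:**
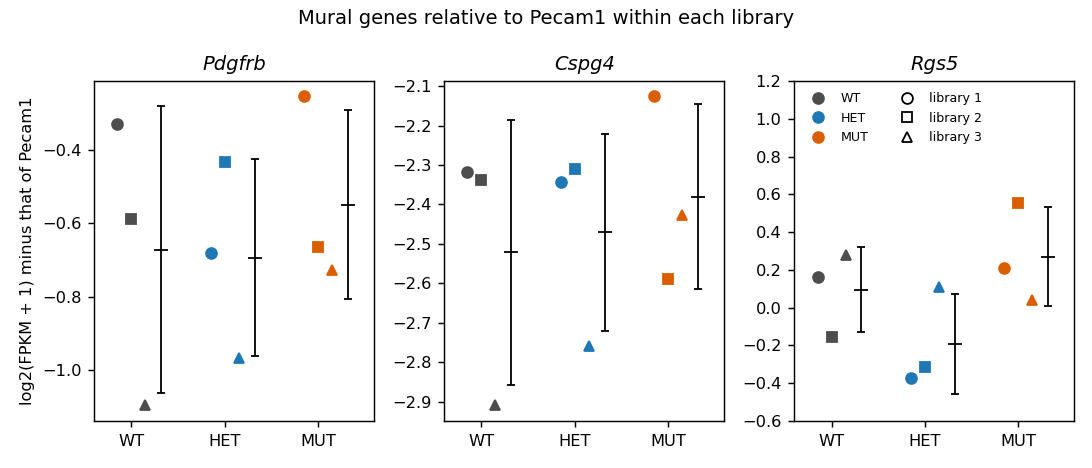
Log2(FPKM + 1) of Pdgfrb, Cspg4 and Rgs5 minus that of Pecam1 in the same library (y axes, which do not start at 0), by genotype, with 1 point per library and the mean with s.d. (n=3). The genotypes overlap in every panel, with Rgs5 from -0.37 to 0.11 in HET and from 0.04 to 0.56 in MUT.

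Genes that process PDGF ligands or bind them outside the receptors were measured as a list of 8. Of the 6 tested between MUT and HET, 0 were called and 2 lay above 0, with a median log2 fold change of -0.02 beside -0.02 for all genes. Furin, the protease that cleaves PDGF-A and PDGF-B precursors, was at 22.2, 19.7 and 20.2 FPKM in HET and 32.3, 31.6 and 24.1 FPKM in MUT, with WT at 31.3, 24.2 and 19.3. Lrp1, a co-receptor of the receptor encoded by Pdgfrb, was at 9.35, 10.2 and 9.89 FPKM in HET and 17.7, 11.2 and 12.5 FPKM in MUT, with WT at 17.5, 12.4 and 7.94. Both were higher in every MUT than in every HET library, by 0.47 (standard error 0.13) and 0.43 (standard error 0.15) on the log2 scale, each with an adjusted p of 0.738 by limma, while WT overlapped both groups. That is 2 of 6 genes tested, where 9.69% of all genes were separated between MUT and HET.

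Plat, the tissue plasminogen activator that activates PDGF-C, was at 44.5 to 50.7 FPKM in MUT and 46.9 to 47.9 in HET, a log2 fold change of -0.01. Plau was at 20.4 to 35.5 FPKM in MUT and 23.1 to 29.5 in HET (-0.03), Nrp1 differed by -0.02, and Sparc, which binds PDGF-B, by -0.10. The fourth ligand gene, Pdgfd, lay between 3.91 and 6.37 FPKM and Pdgfrl, a receptor-like gene, between 1.81 and 2.74 FPKM, and neither reached the minimum for the test between MUT and HET. Pdgfd was tested against WT, with log2 differences of -0.09 for MUT and -0.17 for HET, and was not called.

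Of 37 genes for proteins that relay the signal of PDGF receptors inside the cell, 34 were tested and 0 called. Between MUT and HET, 27 lay above 0 and 7 below, with a median of 0.07 beside -0.02 for all genes. Between HET and WT, 13 lay above and 21 below (median -0.05), and between MUT and WT 28 above and 6 below (median 0.05). The smallest p between MUT and HET were those of the adaptor Grb2 (0.28), the ubiquitin ligase Cbl (0.75), the kinase Src (0.23) and the adaptor Shc1 (0.25), each a log2 fold change with a limma adjusted p of 0.738. Grb2, Src and Pik3r2 were above HET in every MUT library and Map2k1 was below it, the last pair named after their values were seen, which is 4 of 34 genes where 9.69% of all genes were separated.

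Cbl had its lowest values in the same pair of libraries as Rgs5. It was at 4.26, 4.29 and 11.6 FPKM in HET, 14.8, 7.29 and 10.01 FPKM in WT and 15.2, 11.6 and 7.21 FPKM in MUT. HET-1 and HET-2 were the lowest of the 9 and HET-3 lay among MUT and WT.

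A further 18 pericyte genes were listed, of which 13 were tested and 0 called, 8 above 0 and 5 below between MUT and HET (median 0.07). Notch3, the Notch receptor of mural cells, was at 13.1, 12.2 and 13.6 FPKM in HET, 24.4, 17.0 and 15.7 FPKM in MUT and 21.6, 15.9 and 11.2 FPKM in WT, so that MUT lay above HET (log2 fold change 0.49, standard error 0.15, adjusted p = 0.738, limma) and overlapped WT. Des, the muscle intermediate filament desmin, was at 19.6, 19.99 and 22.1 FPKM in HET, 17.5, 14.2 and 18.97 FPKM in MUT and 14.4, 18.6 and 14.99 FPKM in WT, with HET above both other genotypes (log2 fold change between MUT and HET -0.28, standard error 0.12, adjusted p = 0.738, limma). Angpt1 (0.25) and Gja4 (-0.13) were next by p and overlapped. Of the 13 genes, 1 was separated above and 1 below between MUT and HET, where 9.69% of all genes tested were separated. Between HET and WT it was 1 of 13, beside 3.21% of all genes.

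Some pericyte markers of adult tissue were close to 0 at this stage. Higd1b was at most 0.225 FPKM, Art3 at most 0.873 FPKM and Itga7 at most 1.03 FPKM in any library. Vtn was between 0.138 and 0.414 FPKM in 8 libraries and at 9.86 FPKM in HET-2. HET-2 also had a summed level of 7 liver markers of 715 FPKM, against 28.6 to 53.8 in the others.

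As to the libraries as a whole, summed FPKM ran from 453753.5 to 545598.1, the number of reads behind them is unknown, and the spacing of the lowest values gave a rough relative depth of 0.578 to 1.28 with WT-1 at 1. Ntn1 was at 17.8 to 28.9 FPKM in WT, 12.0 to 16.5 in HET and 10.8 to 16.5 in MUT, so the targeted gene was lower in both Cre genotypes but did not separate MUT from HET. Xist was high in 1 HET and 1 MUT library (HET-3 and MUT-1), and Y-linked genes in the other 7. HET-2 stood apart in liver markers and in 7 erythroid markers, which summed to 3475 FPKM against 1908 to 2286. Adrenal markers summed to at most 2.07 FPKM and glial markers to at most 7.67 FPKM. The 0 members called between MUT and HET remained 0 without HET-2 and within the libraries with high Y-linked genes.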

How the data were processed

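Whole-kidney RNA of 9 libraries, 3 per genotype, was sequenced from stranded mRNA libraries. Reads were mapped by the authors with STAR and assembled with Cufflinks, and Cuffdiff gave the deposited FPKM; the submitters' notes name mm10. Versions and annotation are not given in the sources used here. The deposited FPKM were used as they are, by sample, and the authors' mean columns were not used. Reads behind a value are unknown, so no counting interval is given.

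Genes averaging 5 FPKM or more in either genotype were compared on log2(FPKM + 1), which understates changes of low genes, with limma 3.58.1 in R 4.3.3 (lmFit, eBayes with a trend, two-sided, Benjamini-Hochberg, threshold 0.05), 3 libraries against 3, without a block. The step was tested on simulated data. Exact permutation tests used scipy 1.17.1. GC content came from GENCODE vM21 for 95.87% of loci, and starts in the locus field were made 1-based.

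The members, gene lists, tests and alternatives were chosen with earlier results of these data known. Named genes were the 10 members, up to 4 genes of each other list by the smallest p between MUT and HET, ligand-processing genes of at least 5 FPKM, and the 3 closest patterns of each member. Pdgfd, Pdgfrl, Kcnj11, Abcc8, Vtn, Higd1b, Art3, Itga7 and Cnn1, under the minimum between MUT and HET, were named after their values were seen, as were the genes said so. Alternatives were other pseudocounts (0.1 and 3), minimums, scalings, fits and a correction for GC content (spline, 5 degrees of freedom), each library left out, and, added after the data were seen, only libraries with high Y-linked genes.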

Additional observations from a re-analysis of the deposited data

Results flagged for a closer look

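In 6 of the 10 genes, every MUT library lay on one side of every HET library among those with high Y-linked genes (2 MUT, 2 HET) and on the other side in the Xist-high pair (1 MUT, 1 HET). The same held for 2495 of the 10081 genes tested (24.7%). The difference between the sexes was not tested, and the Xist-high side has 1 library per genotype. The ratio of mean FPKM, MUT over HET, was 0.867 for Pdgfrb, 0.865 for Pdgfb, 0.833 for Cspg4 and 0.851 for Mcam in the libraries with high Y-linked genes, and 1.52, 1.31, 1.49 and 1.04 in the Xist-high pair. For Pdgfra it was 1.16 and 0.890, and for Rgs5 1.54 and 0.978.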

How the results depend on the processing

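The 0 members called remained 0 under the 18 alternatives that left out a library and the 33 others run, some of which use the same libraries. Of 330 log2 fold changes of members under alternatives other than leaving out a library, 314 kept their direction and 16 turned sign, none of them called in either form; the cause was not tested. With median-ratio rescaling, Pdgfb between MUT and HET was 0.0065 and Cspg4 between MUT and WT 0.0045. With quantile normalization, Kcnj8, Cspg4 and Abcc9 between MUT and HET were -0.0087, -0.0060 and -9.9e-05, Cspg4 between MUT and WT was 0.0068, and Pdgfb and Cspg4 between HET and WT were 0.013 and 0.013. The GC correction put Cspg4 between MUT and HET at -0.015. With the mean of the endothelial markers in place of Pecam1, Pdgfrb was at -0.029 (MUT against HET) and -0.042 (MUT against WT), and Cspg4 at -0.084 and -0.024.

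In the libraries with high Y-linked genes alone, Kcnj8, Cspg4, Abcc9 and Pdgfrb between MUT and HET were -0.0023, -0.23, -0.11 and -0.19, and Pdgfb, Cspg4 and Pdgfrb between HET and WT 0.10, 0.083 and 0.0031. There 1 gene was called between MUT and HET (Snora65) and 1 between HET and WT (Mir7-1), named after the fact. Both are small RNAs. Every WT library had high Y-linked genes, so against WT these fits are the same as those without MUT-1 or without HET-3. The call of Mir7-1 is thus the 1 gene called without HET-3.

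Leaving out 1 library at a time called between 0 and 3 genes in each comparison and 0 members. Between MUT and HET, 1 gene was called without MUT-2, 3 without MUT-3 and 1 without HET-1. Between MUT and WT it was 1 without MUT-2, 3 without WT-1 and 1 without WT-2, and between HET and WT 1 without HET-3, 3 without WT-2 and 1 without WT-3. Apart from Akr1b7 and Sprr1a, called without WT-1, all were loci named for small nucleolar RNAs or microRNAs. For the members, MUT against HET then ran from -0.13 to 0.14 for Cspg4, -0.18 to 0.18 for Abcc9, -0.094 to 0.19 for Pdgfrb, -0.12 to 0.12 for Pdgfb and -0.047 to 0.087 for Kcnj8. Between MUT and WT it ran from -0.14 to 0.11 for Pdgfb, -0.17 to 0.12 for Cspg4, -0.21 to 0.13 for Pdgfrb, -0.12 to 0.15 for Rgs5 and -0.32 to 0.042 for Abcc9. Between HET and WT it ran from -0.14 to 0.11 for Pdgfb, -0.15 to 0.062 for Pdgfra, -0.093 to 0.049 for Pdgfc, -0.18 to 0.083 for Cspg4, -0.27 to 0.065 for Pdgfrb and -0.28 to 0.021 for Abcc9. Relative to Pecam1, Pdgfrb ran from -0.0027 to 0.27, -0.089 to 0.29 and -0.23 to 0.15, and Cspg4 from -0.054 to 0.19, -0.053 to 0.24 and -0.14 to 0.19, in the same order of comparisons. Without any 1 library, Pdgfa stayed below 0 in MUT, from -0.18 to -0.10 against HET and -0.098 to -0.078 against WT, and Pdgfc above 0, from 0.13 to 0.19 against HET and 0.073 (without WT-3) to 0.22 against WT.

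With the replicate number as a block, 0 genes and 0 members were called in each comparison, and the number under an unadjusted p of 0.05 was 494 between MUT and HET (636 without the block), 201 between MUT and WT (65) and 233 between HET and WT (108). Deviations of same-numbered libraries had correlations of mixed sign. They were -0.31, 0.059 and -0.13 between MUT and HET, 0.55, -0.26 and -0.027 between MUT and WT, and -0.19, -0.060 and 0.18 between HET and WT. MUT-1 with WT-1 (0.55) was the highest of all pairs. Differently numbered libraries also reached large values, -0.55 for MUT-3 with WT-1 and 0.48 for MUT-3 with WT-2. The labels do not say what a number marks, so whether numbers pair libraries is not known. With 3 libraries per genotype and unknown depth, the width of the intervals limits what can be seen.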

Other observations

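Among the vascular smooth muscle genes, HET stood apart from MUT and WT in the contractile genes Actg2 and Myh11. Actg2, a smooth muscle actin, was at 9.59, 16.3 and 8.24 FPKM in HET, 4.53, 4.06 and 5.55 FPKM in MUT and 4.71, 3.16 and 4.79 FPKM in WT, and Myh11, the smooth muscle myosin heavy chain, was at 5.61, 7.33 and 6.18 FPKM in HET, 4.77, 3.16 and 3.70 FPKM in MUT and 4.27, 2.54 and 4.59 FPKM in WT. Every HET library was above every MUT and WT library for both. Log2 fold changes between MUT and HET were -1.07 (standard error 0.21) and -0.60 (standard error 0.17), with an adjusted p of 0.738 by limma for each. Between HET and WT they were 1.21 and 0.64, each with a limma adjusted p of 0.998. Cnn1, under the minimum for testing, was at 3.74, 4.81 and 3.47 FPKM in HET, at most 2.95 in MUT and at most 3.15 in WT. Over all genes tested, 9.69% were separated between MUT and HET and 3.21% between HET and WT. Between MUT and HET, Acta2 (-0.37) overlapped, and Mylk was at 0.17. Of the 7 genes of the list tested between MUT and HET, 0 were called.

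Of the renin cell genes, Ren1, which encodes renin and shares its locus with Ren2, was at 149.0, 137.0 and 136.0 FPKM in WT, 108.0, 114.9 and 69.4 FPKM in HET and 75.2, 105.6 and 64.3 FPKM in MUT. Both Cre genotypes lay below every WT library, where 2.65% of all genes tested were separated between MUT and WT and 3.21% between HET and WT. Neither difference was called, with a limma adjusted p of 0.9998 for MUT and 0.998 for HET. Akr1b7, a gene of renin cells, was at 14.5, 23.4 and 20.6 FPKM in WT, 16.0, 14.8 and 12.4 FPKM in HET and 9.19, 9.67 and 11.5 FPKM in MUT, below HET in every MUT library (log2 fold change -0.47, standard error 0.13, adjusted p = 0.738, limma). Without WT-1, Akr1b7 passed the threshold between MUT and WT (log2 fold change -1.05, adjusted p = 0.0382, limma), and with all libraries it did not. The MUT and HET libraries overlapped for Gata3 (log2 fold change 0.15) and Adamts1 (log2 fold change 0.0025), the other genes of this list that were tested. Of the 12 endothelial markers, 8 lay above 0 and 4 below between MUT and HET (median 0.07), of 5 podocyte markers tested all lay above 0 (median 0.24), and of 8 ureteric markers 5 did. Of 9 stromal markers tested 5 lay above 0, of 5 erythroid, 3 macrophage and 5 liver markers 0 did, and 0 genes of any list were called. HET-2 alone stood apart in the erythroid and liver markers, with sums of 3475 and 715 FPKM.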
